A study of Mus musculus with 2 samples.

Results

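The Clcn5 intron cluster is a group of 5 microRNA genes, Mir532, Mir188, Mir362, Mir501 and Mir500, that lie inside the chloride transporter gene Clcn5 on the mouse X chromosome. They were taken from the tables by name, through the gene symbols of GENCODE release M21, and make up 5 of the 1973 microRNA genes counted. The rule goes by name and uses no measured value. The small RNA fraction, under 30 bases, of lungs from B6NCrl mouse embryos was sequenced at embryonic day 16.5. The 2 libraries form a single group of healthy embryos, for which the labels list no treatment or mutation, and are labelled biological replicates 1 and 2. Each is a pool of lungs from male and female embryos, 41 embryos for replicate 2 and a number not given in the sources used here for replicate 1. With 1 group there is no comparison of conditions, so the 5 genes were compared with each other, with the other microRNA genes and between the libraries. Each pool was made into 1 library, so the spread between pools and that of library preparation cannot be told apart.

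MicroRNAs are cut from hairpin precursors as short RNAs that guide Argonaute proteins to messenger RNAs, and the bases near the 5′ end, called the seed, largely decide which messages are bound. Intronic microRNAs are often made from the same transcript as their host gene and can share one primary transcript among themselves. Clcn5 encodes ClC-5, an exchanger of chloride for protons in endosomes, which is best known from the kidney tubule, where its loss causes Dent disease in humans. In mice, miR-188 has been studied in neurons and in bone marrow stromal cells, and miR-501 in neurons and in muscle progenitor cells. In human cancer cells, miR-500a and miR-362 have been studied as regulators of CYLD, an inhibitor of NF-κB signalling, and miR-532 as a regulator of the transcription factor RUNX3.

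All 5 genes lie on the minus strand, the strand of Clcn5 (chromosome X, 7153810 to 7319358, mm10), in an intron of 103648 bases at 7213011 to 7316658. In 3 of the 5 annotated Clcn5 transcripts all 5 members fall in this intron, and none overlaps an exon of Clcn5. Mir532 (ENSMUSG00000070139.1) comes first along the host strand, at 7248402 to 7248497. Mir188 (ENSMUSG00000065398.1), at 7247989 to 7248056, follows after a gap of 345 bases. Mir362 (ENSMUSG00000070100.1), at 7241982 to 7242046, lies 5942 bases further on, Mir501 (ENSMUSG00000076251.1), at 7241243 to 7241351, another 630 bases, and Mir500 (ENSMUSG00000070108.2), at 7237683 to 7237774, another 3468 bases. The group thus forms the close pairs Mir532 with Mir188 and Mir362 with Mir501, with Mir500 apart, and spans 10815 bases or 10.4% of the intron. No other counted microRNA gene lies inside Clcn5 on its strand.

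The mature sequences show how the members resemble each other. They were read from RefSeq on GRCm38.p6, the same build as mm10, which holds 9 mature sequences for the 5 genes, 4 from the 5′ arm and 5 from the 3′ arm. The seed, bases 2 to 8, is in capitals. The sequences used here include none for miR-532-5p, so the seeds and searches below leave it out. These are the 5′ arms of the other members, which show their shared start:
miR-188-5p: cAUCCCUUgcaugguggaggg
miR-362-5p: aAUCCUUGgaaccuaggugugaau
miR-501-5p: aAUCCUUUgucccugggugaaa
miR-500-5p: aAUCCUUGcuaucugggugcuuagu
The seeds of miR-362-5p and miR-500-5p are the same, and 5 of the 7 seed positions are equal in all 4 sequences. Laid side by side from the 5′ end without gaps, the 6 pairs of these arms differ at 6 to 11 positions.

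The 3′ arms fall into 2 kinds, shown because they hold the closest pair in the cluster:
miR-532-3p: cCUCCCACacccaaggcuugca
miR-188-3p: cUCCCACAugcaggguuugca
miR-362-3p: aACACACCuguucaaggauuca
miR-501-3p: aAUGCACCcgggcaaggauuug
miR-500-3p: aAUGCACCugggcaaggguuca
miR-501-3p and miR-500-3p have the same seed and differ at 4 of 22 bases, with miR-501-3p given first C9U, A18G, U21C and G22A, counted from the 5′ end. miR-532-3p and miR-188-3p share the run CUCCCACA, which starts at base 2 of miR-532-3p and base 1 of miR-188-3p, so their seeds are offset by 1 base. Across the 10 pairs of 3′ arms the number of differing positions ranges from 4 to 17. The 9 sequences hold 7 distinct seeds.

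The likeness of Mir501 and Mir500 extends beyond the mature arms into part of the rest of the hairpin. The RefSeq sequences are shown here with the mature arms in capitals:
Mir501: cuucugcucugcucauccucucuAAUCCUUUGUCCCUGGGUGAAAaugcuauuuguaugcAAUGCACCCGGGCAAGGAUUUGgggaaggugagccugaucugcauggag
Mir500: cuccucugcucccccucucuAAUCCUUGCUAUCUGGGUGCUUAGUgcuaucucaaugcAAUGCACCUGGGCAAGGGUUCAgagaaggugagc
In a global alignment these 2 hairpins were identical at 67.3% of columns, the highest of the 10 pairs of members, and their longest shared run was 14 bases. The other pairs ranged down to 42.7%, for Mir532 and Mir362. Among counted microRNA genes with an identifier matched to GENCODE M21, no member shares 22 bases with another gene. The longest run shared with such a gene outside the cluster was 12 bases. None of the 9 mature sequences matched a transcript of another annotated gene exactly, on either strand. A genome sequence was not used here, so matches outside annotated transcripts were not analysed. In the tables, reads that match several loci are listed apart from the genes, and how many of them come from the members was not tested.

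All 5 members were detected, meaning at least 10 counts in each library, against 17.6% of all counted genes (347 of 1973). Levels are given as CPM, counts scaled to 1e+06 counts over microRNA genes in each library. The gene totals were 6376715 counts in replicate 1 and 4123748 in replicate 2, so that 1 read is 0.157 and 0.242 CPM. The counts do not tell the 2 arms of a hairpin apart, so a level belongs to the gene and not to one of the sequences above. In bulk tissue, fewer cells that express a gene and less of its RNA per cell cannot be told apart.

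Mir532 was the highest member, with 7979 counts or 1251 CPM in replicate 1 and 5563 counts or 1349 CPM in replicate 2. It was the only member above 1000 CPM in both libraries. Mir188 had 5854 counts or 918 CPM in replicate 1 and 3608 counts or 875 CPM in replicate 2. These neighbours at the 5′ end of the cluster were the 2 most abundant members in both libraries. Mir501 came next, at 354 CPM in replicate 1 and 379 CPM in replicate 2, from 2257 and 1563 counts.

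Mir500, the closest relative of Mir501 in sequence, had 797 counts or 125 CPM in replicate 1 and 660 counts or 160 CPM in replicate 2. Mir362 was the lowest member, with 578 counts or 90.6 CPM in replicate 1 and 312 counts or 75.7 CPM in replicate 2. Every member was far above the 0.470 and 0.727 CPM that a count of 0 would allow in these libraries. The means were 1300 CPM ± 69.1 for Mir532, 896 ± 30.5 for Mir188, 366 ± 17.7 for Mir501, 143 ± 24.8 for Mir500 and 83.2 ± 10.6 for Mir362 (SD, n = 2).

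**Figure D1:**
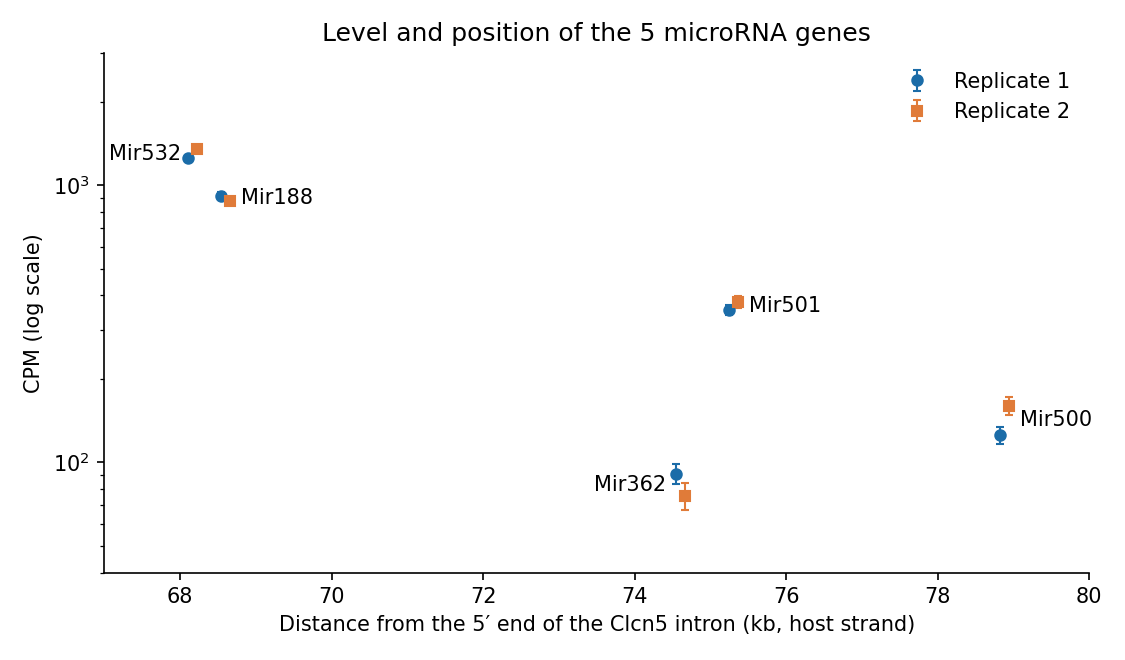
CPM of each member on a log scale (vertical axis) against its distance from the 5′ end of the Clcn5 intron in kb (horizontal axis), with circles for replicate 1 and squares for replicate 2, drawn slightly apart for clarity, and exact 95% intervals of the counts. Mir532 and Mir188, the first along the host strand, lie highest, and Mir362 lies lowest although Mir501, 630 bases away, is 4.41-fold higher in the mean.

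The order Mir532, Mir188, Mir501, Mir500, Mir362 was the same in both libraries. For all 10 pairs of members, the lower value of the higher gene exceeded the upper value of the lower gene, so no neighbours in the order overlapped between the libraries. The smallest step was that from Mir532 to Mir188, 1.36-fold in replicate 1 (95% interval 1.32 to 1.41) and 1.54-fold in replicate 2 (1.48 to 1.61). Mir188 was 2.59-fold above Mir501 in replicate 1 (2.47 to 2.72) and 2.31-fold in replicate 2 (2.17 to 2.45). Mir501 and Mir500, which share the seed of their 3′ arms, differed 2.83-fold (2.61 to 3.07) and 2.37-fold (2.16 to 2.60) in the same libraries.

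The last step, Mir500 over Mir362, whose 5′ arms share a seed, was 1.38-fold in replicate 1 (1.24 to 1.54) and 2.12-fold in replicate 2 (1.85 to 2.43). From top to bottom the cluster spanned 13.8-fold (12.7 to 15.0) in replicate 1 and 17.8-fold (15.9 to 20.0) in replicate 2. Mir362 and Mir501, which lie 630 bases apart, differed 3.90-fold (3.56 to 4.29) and 5.01-fold (4.43 to 5.68). Close neighbours along the intron thus had unequal levels. These intervals come from the exact Clopper-Pearson method and describe counting error alone. They leave out the spread between pools. They also take each read as a separate molecule, which amplified reads need not be, so they can be too narrow.

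Hairpin lengths range from 65 bases for Mir362 to 109 for Mir501, and 2 of the steps depend on whether they are taken into account. Per hairpin base, Mir532 was at 13.0 CPM in replicate 1 and 14.1 CPM in replicate 2, and Mir188 at 13.5 and 12.9 CPM. On that scale Mir188 lay above Mir532 in replicate 1 and below it in replicate 2, so these genes were not apart. Mir500 was at 1.36 and 1.74 CPM per base and Mir362 at 1.39 and 1.16 CPM per base, which also overlap. Mir501, at 3.25 and 3.48 CPM per base, stayed between both pairs. Reads from microRNA genes are whole mature microRNAs rather than fragments spread over the hairpin, and levels are otherwise given per gene.

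Together the members held 17465 counts or 0.274% of gene counts in replicate 1 (0.270 to 0.278) and 11706 counts or 0.284% in replicate 2 (0.279 to 0.289). The mean share was 0.279% ± 0.00706 (SD, n = 2). Mir532 made up 45.7% of the cluster's counts in replicate 1 (44.9 to 46.4) and 47.5% in replicate 2 (46.6 to 48.4). Mir188 made up 33.5% (32.8 to 34.2) and 30.8% (30.0 to 31.7), and with Mir532 it took 79.2% and 78.3%. The 3 genes further along the host strand shared the rest.

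Of these, Mir501 held 12.9% of the cluster's counts in replicate 1 (12.4 to 13.4) and 13.4% in replicate 2 (12.7 to 14.0). Mir500 held 4.56% (4.26 to 4.88) and 5.64% (5.23 to 6.07), and Mir362 held 3.31% (3.05 to 3.59) and 2.67% (2.38 to 2.97). The intervals of the 2 libraries overlapped for Mir501 and for the sum of Mir532 and Mir188. They did not overlap for Mir532, Mir188, Mir362 or Mir500 on its own. The intervals hold counting error alone and leave out the spread between pools, so they cannot show a shift in the make-up of the cluster. Counting error alone is also the measure of the exact binomial test given below, which 163 of 347 genes passed. Such shares were not compared for other groups of genes. Shares within the cluster do not depend on how the libraries are scaled to each other.

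**Figure D2:**
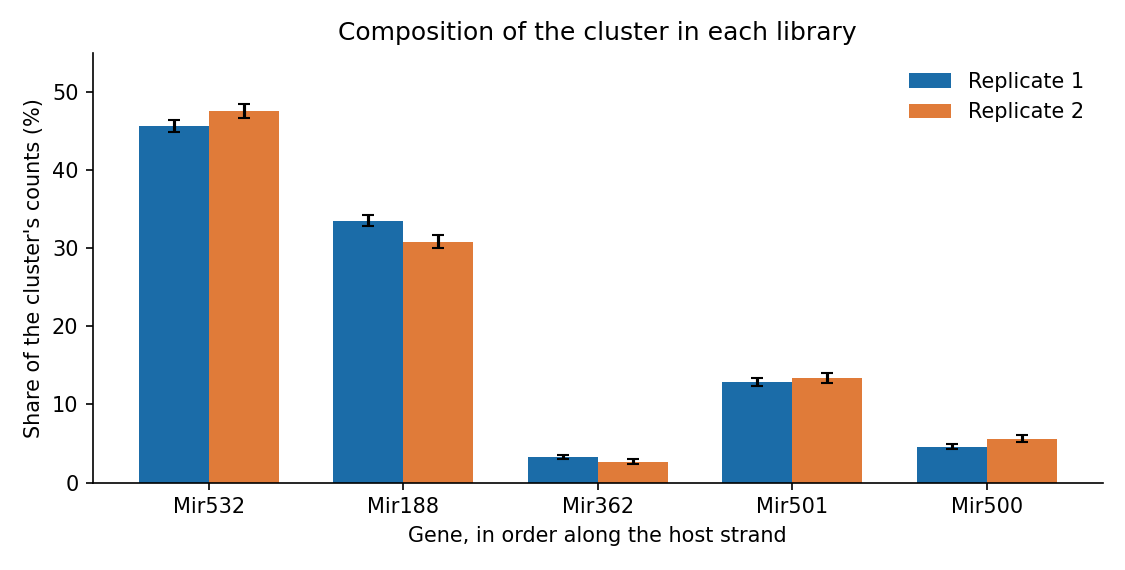
Share of the cluster's counts held by each member in percent (vertical axis), with the genes in order along the host strand (horizontal axis), for replicate 1 (left bar) and replicate 2 (right bar), and exact 95% intervals of the counts. Mir532 and Mir188 together hold 79.2% in replicate 1 and 78.3% in replicate 2, and Mir500 has a larger share in replicate 2.

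Each of the 5 genes had all of its counts on the annotated strand, with 0 counts on the opposite strand in either library. Among the 347 detected genes, 297 had no opposite-strand count in either library. The counts of the members are therefore the same in the column of sense counts. Their CPM differ a little, because the total of sense counts is smaller. On that scale the mean of Mir532 was 1336 CPM in place of 1300 CPM.

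Among the 347 detected microRNA genes, Mir532 ranked 89 by mean CPM, Mir188 107, Mir501 136, Mir500 185 and Mir362 200. The first 3 of these lie above the median of detected genes, 180 CPM, and Mir500 and Mir362 below it. The median of the 5 means was 366 CPM. The ranks of a member in the 2 libraries differed by at most 2 places, except for Mir362, which ranked 196 in replicate 1 and 206 in replicate 2.

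**Figure D3:**
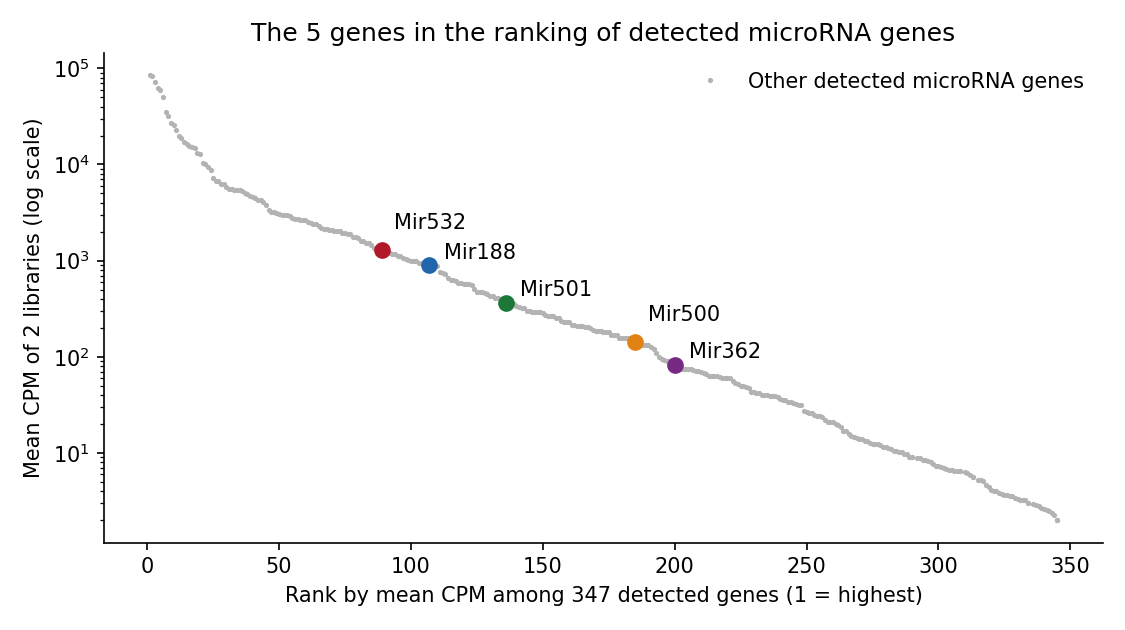
Mean CPM of the 2 libraries on a log scale (vertical axis) against rank among the 347 detected microRNA genes (horizontal axis), with the 5 members as large coloured points and the other genes as small grey points. The members run from rank 89 for Mir532 to rank 200 for Mir362, in the middle of the ranking.

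On the X chromosome 36 microRNA genes were detected, and Mir532 ranked 8, Mir188 10, Mir501 17, Mir500 25 and Mir362 26 among them. Mir532 lay below Mir503, a member of the Mir322 cluster that is tied to cell cycle arrest, at 2041 CPM in replicate 1 and 2011 CPM in replicate 2. The ratio of Mir532 to Mir503 was 0.613 in replicate 1 (0.596 to 0.630) and 0.671 in replicate 2 (0.648 to 0.694). Mir322 itself was 40.8-fold and 42.8-fold above Mir503, a wider gap than that between the top and bottom of the Clcn5 cluster in either library. Mir425, from a pair of microRNA genes in Dalrd3 on chromosome 9, was at 1687 and 1528 CPM, and the ratio of Mir532 to it was 0.742 (0.720 to 0.764) and 0.883 (0.852 to 0.916). Mir191 of the same pair was not analysed here.

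Outside the cluster, the seeds shown above were looked for in other mature microRNAs. miR-362-3p has the seed of miR-329-3p, whose gene lies in the imprinted Dlk1-Dio3 region. Mir329 was at 193 CPM in replicate 1 and 217 CPM in replicate 2, from 1229 and 893 counts. The ratio of Mir362 to Mir329 was 0.470 (0.425 to 0.520) in replicate 1 and 0.349 (0.306 to 0.398) in replicate 2, so Mir362 was the lower gene in both. miR-188-5p has the seed of miR-7061-3p, whose gene has no row in the tables by that symbol. Of the 1738 mature sequences in the RefSeq table, no others outside the cluster had the seed of one of the 9 sequences shown.

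The genes outside the cluster whose levels over the 2 libraries were most like those of each member were found by Euclidean distance in log2(CPM + 1). Mir434, of the Dlk1-Dio3 region, was nearest to Mir532, at 1248 CPM in replicate 1 and 1423 CPM in replicate 2 (distance 0.08). Mir199b, typical of mesenchyme, was nearest to Mir188, at 912 and 853 CPM (0.04). Mir543 was nearest to Mir501, at 334 and 376 CPM (0.08), and Mir574 to Mir500, at 127 and 162 CPM (0.02). Mir5099 was nearest to Mir362, at 84.2 and 86.6 CPM (0.22). The log2 ratio of Mir5099, replicate 1 over replicate 2, was only -0.04 and did not pass the exact binomial test given below. A pattern over 2 libraries holds only a level and a ratio, so such a list shows little more than genes of similar abundance.

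Other introns that hold several microRNA genes give a scale for the spread within the Clcn5 cluster. Introns of 20 host genes held at least 2 detected microRNA genes on the host strand, and Clcn5, with 5, was one of 2 hosts with 5 or more. Sfmbt2 had 10, all of which share 22 bases with another microRNA gene and may be counted too low. In the order of the fold between the highest and the lowest gene, from small to large, Clcn5 stood at place 11 of 20 with 15.6-fold, against a median of 15.0-fold. Over the 13 hosts with no gene found to share 22 bases with another, Clcn5 among them, the median was lower, at 9.50-fold. That search covered only genes with a matched identifier, so shared sequence may remain among the 13. The smallest fold was 1.39, between Mir374b and Mir421 in Ftx, also on the X chromosome, and the largest was 787, between Mir449a and Mir449b in Cdc20b. The summed level of the Clcn5 cluster, 2789 CPM ± 70.6 (SD, n = 2), was at place 13 from the top, against a median of 3394 CPM. Some of these hosts overlap and share genes, and 12 of the 20 hold only 2 genes, which leaves less room for a spread.

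**Figure D4:**
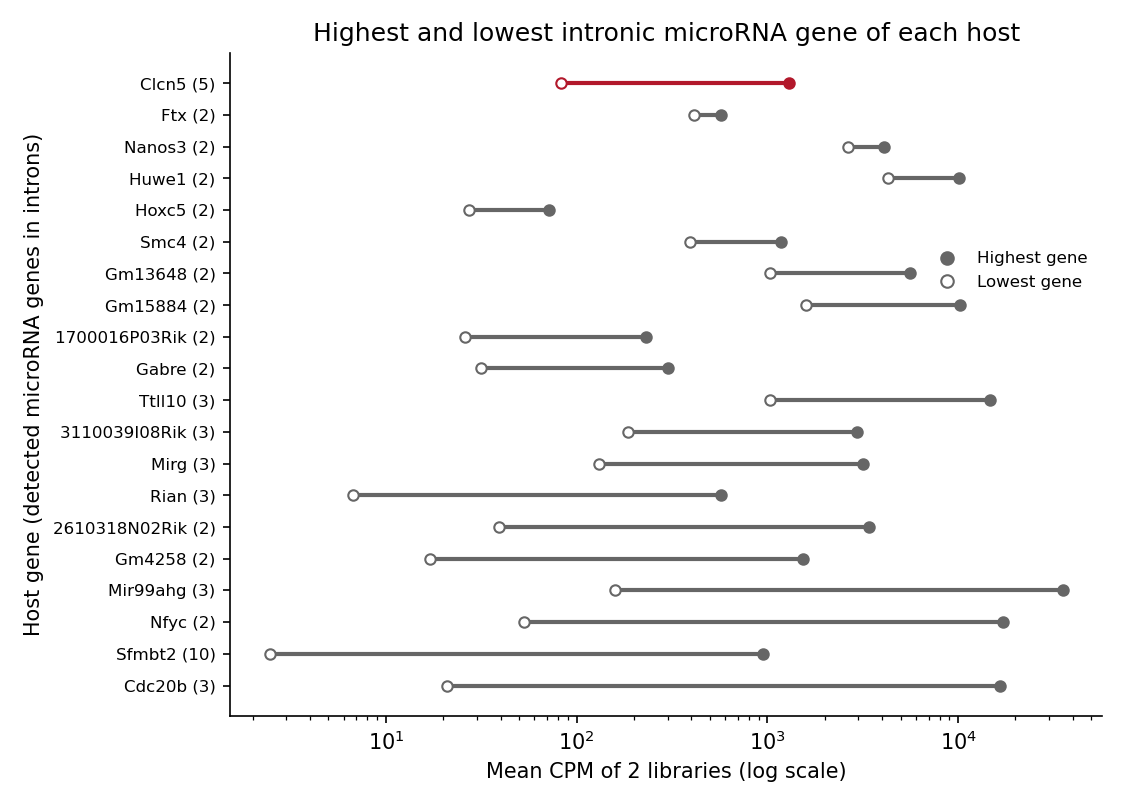
Mean CPM on a log scale (horizontal axis) of the highest (filled circle) and lowest (open circle) detected microRNA gene in the introns of each of 20 host genes (vertical axis, number of detected genes in brackets), with Clcn5 at the top in red and the other hosts below by increasing fold. The Clcn5 line is 15.6-fold long, against a median of 15.0-fold over all 20 hosts and 9.50-fold over the 13 in which no shared sequence was found.

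The libraries differed by little for these genes. Each gene's split of counts between the libraries was set against the split of the totals in an exact binomial test, two-sided and adjusted by Benjamini-Hochberg over the 347 detected genes. By this test 3 of the 5 members differed at an adjusted p under 0.05, 1 higher in replicate 1 and 2 higher in replicate 2. With edgeR's exact test, which allows for spread between libraries, none of the 5 did (adjusted p = 1.0 for each, and 0 at an unadjusted p under 0.05). It called 5 of 347 genes in all. Its common dispersion of 0.0217 was estimated from the same difference between these 2 libraries that it tests. It therefore cannot decide whether the members differ. The calls for single members given next are those of the binomial test, and edgeR's test made none of them. Over all detected genes 47.0% passed the binomial test, 16.4% higher in replicate 1 and 30.5% higher in replicate 2. Of the 112 genes with means between those of Mir362 and Mir532, 60.7% did. The members' count is thus near the background. The test weighs a difference against counting error alone and says nothing of conditions.

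Mir500 differed most, with a ratio of replicate 1 over replicate 2 of 0.781 (0.703 to 0.867, adjusted p = 1.19e-05 in the exact binomial test). Mir532 was also lower in replicate 1, with a ratio of 0.928 (0.896 to 0.960, adjusted p = 6.22e-05 in the exact binomial test). With edgeR's TMM library sizes the adjusted p of Mir532 became 0.0556, above the threshold. Mir362 was higher in replicate 1, with a ratio of 1.20 (1.04 to 1.38, adjusted p = 0.0232 in the exact binomial test). It and its seed partner Mir500 thus lay on opposite sides.

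Mir188 had a ratio of 1.05 (1.01 to 1.09), and its adjusted p in the exact binomial test was 0.05 when rounded, just above the threshold. With TMM sizes, DESeq2 size factors or all reads in the table as the scale it passed, at adjusted p of 2.42e-04, 6.54e-04 and 0.00730. Mir501 had a ratio of 0.934 (0.875 to 0.997, adjusted p = 0.0783 in the exact binomial test). No member differed by 1.5-fold or more, as 5.19% of detected genes did past the same test. The median size of the log2 ratio was 0.11 over the members and 0.16 over the 347 detected genes. The sum of the cluster had a ratio of 0.965 (0.942 to 0.988).

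**Figure D5:**
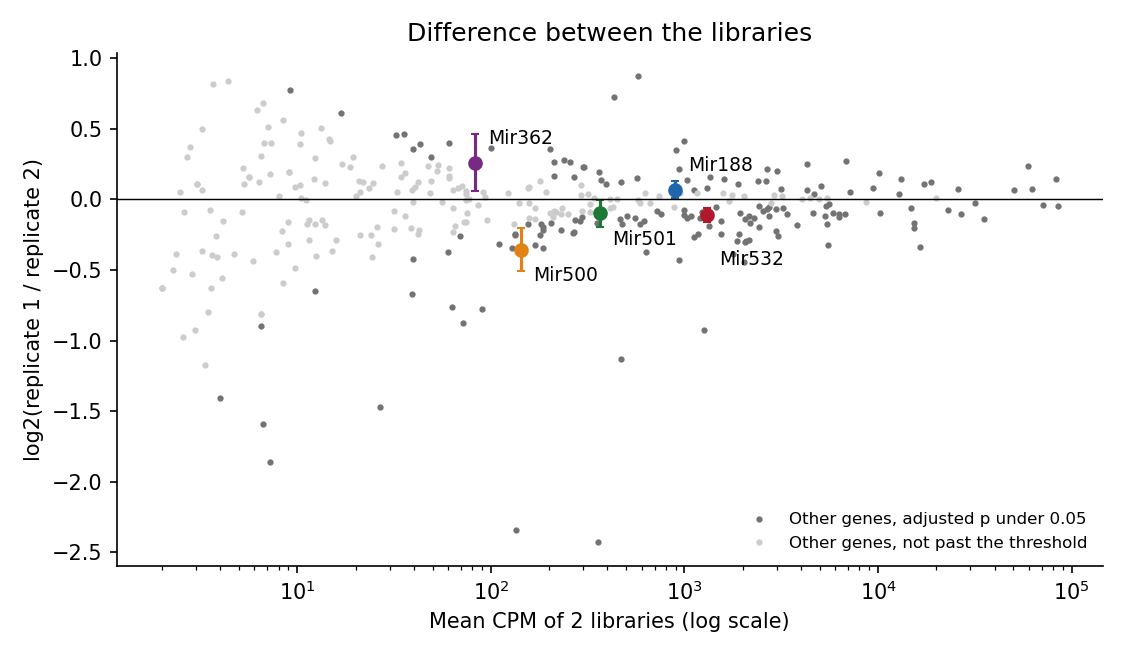
log2 ratio of replicate 1 over replicate 2 (vertical axis) against mean CPM on a log scale (horizontal axis) for the 347 detected genes, with the members as coloured points with exact 95% intervals and the other genes in dark grey (adjusted p under 0.05) or light grey. The members lie between -0.36 for Mir500 and 0.26 for Mir362, within the scatter of genes of like level.

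The tissue and its admixtures were checked with small lists of marker genes. All 7 markers of lung epithelium, endothelium, mesenchyme and multiciliated cells were detected, and summed to 131486 CPM in replicate 1 and 129132 CPM in replicate 2. Most of that sum is Mir126a of endothelium, at 87277 and 79120 CPM, a ratio of replicate 1 over replicate 2 of 1.10. The multiciliated cell markers lay the other way, Mir449a at 14581 and 18445 CPM (ratio 0.790) and Mir34c at 803 and 1080 CPM (ratio 0.743). Mir199a-1 of mesenchyme, which shares sequence with another gene, had only 38 and 22 counts, while Mir214, also of mesenchyme, was at 4455 and 4760 CPM.

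Of 6 markers of liver, nerve, muscle and red cells, 5 were in the tables by symbol. Of these, 3 had 0 counts in both libraries, Mir124a-1, Mir1a-1 and Mir133a-1. The first and the last share sequence with other counted genes. Sequence shared with genes that matched no symbol was not analysed, so any of the 3 may be counted too low. The detected ones were Mir122 of liver, at 111 CPM in replicate 1 and 601 CPM in replicate 2, and Mir451a of red cells, at 747 and 408 CPM. The 5 summed to 859 and 1009 CPM. Other microRNAs of striated muscle, named after their values were seen, were detected although both muscle markers on the list were at 0. Mir206 of skeletal muscle was at 294 CPM in replicate 1 and 643 CPM in replicate 2. Mir208a and Mir208b, which lie in heart myosin genes, were at 536 and 324 CPM and at 225 and 200 CPM, and Mir499 was at 24.2 and 22.8 CPM. Genes named like the listed muscle markers lay far lower, Mir133b at 3.29 and 9.94 CPM and Mir1b at 1.88 and 2.67 CPM. MicroRNAs known from striated muscle were thus present in both libraries. The part of these and of the lung markers in the differences between the libraries was not tested.

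The composition and predicted folding of the hairpins were set beside those of all detected genes. GC content ranged from 46.2% for Mir362 to 55.9% for Mir188, against a median of 50.5% over detected hairpins. The minimum free energy predicted by RNAfold ran from -28.5 kcal/mol for Mir362 to -46.9 kcal/mol for Mir501, the shortest and the longest hairpin. Per base, Mir532, the most abundant member, had the weakest predicted fold, at -0.346 kcal/mol, and the other 4 lay between -0.424 and -0.455 kcal/mol, against a median of -0.435 over detected hairpins. The annotated ends of a hairpin enter these values.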

How the data were processed

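The authors deposited 1 table per library of raw counts of reads per microRNA gene, not normalized. Build mm10 and annotation release M4 come per the file headers of the companion text. Aligner, counting program and trimming: not given in the sources used here. In both tables there are 4 summary lines that held 50.4% of reads in replicate 1 and 51.2% in replicate 2, mostly reads that match several loci (30.0% and 31.8%), and stayed out of totals and tests. The first count column equals the sum of the strand columns in all 1973 genes and was used. Of these, 1894 identifiers matched GENCODE M21.

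CPM, folds, exact intervals at 95% and the binomial test (threshold 0.05) were computed in Python 3.11.15 with scipy 1.17.1. Hairpins were aligned with Biopython 1.88 (match 1, mismatch -1, gap opening -2, extension -0.5) and folded with RNAfold 2.7.2. edgeR 4.0.16 and DESeq2 1.42.0 in R 4.3.3 gave alternatives, as did other count minimums, the sense column, hairpin length and each replicate left out. The binomial test and its intervals were tried on simulated counts with counting error alone. edgeR's exact test was tried on simulated counts with a dispersion set in advance. The estimate of the dispersion from 2 libraries was not tried on simulated data.

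Named genes are the 5 members, the nearest gene to each, genes that share a seed, Mir425, Mir322, Mir503 and the hosts with the extreme folds. The members and lists were chosen with earlier results of these data known. The replicates are separate pools per the labels, and n = 2 limits every SD.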

Additional observations from a re-analysis of the deposited data

How the results depend on the processing

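The order of the 5 members, all of them detected, held under each alternative run on the mean values, among them sense counts, 3 other scales, removal of the most abundant gene and hairpin length. Per hairpin base the order did not hold in replicate 1 alone, where Mir188 lay above Mir532 and Mir362 above Mir500. The fold between the highest and the lowest member was 15.6. It stayed within 1 SD of the libraries (2.85) in all of these alternatives on the mean values but 1. Per hairpin base it was 10.6, since Mir532 is longer than Mir362. Leaving out a replicate gave 13.8 to 17.8. The cluster's share of 0.279% became 0.287% with sense counts, 0.137% of all reads in the table and 0.305% without Mir322, each because the total is another, and 0.274 to 0.284% with a replicate left out. The count of members that differ between the libraries was 3 or 4 under other scales, columns and count minimums, but 0 in the exact test of edgeR with a common dispersion (adjusted p = 1.0 for each, 0 at an unadjusted p under 0.05). The same difference between these 2 libraries supplied the dispersion, so edgeR's test cannot decide whether the members differ. It called 5 of 347 genes in all, against 163 in the binomial test. Of 25 log2 ratios recomputed for single members, 21 kept their direction and side of the threshold and none changed sign; Mir532 lost its call once and Mir188 gained one 3 times. The place of Clcn5 among 20 intron hosts was 12 in place of 11 at a count minimum of 50. No paired analysis was possible because there is only 1 group. With 312 to 797 counts, Mir362 and Mir500 have the widest intervals among the members for the ratio between the libraries.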
